A study of Mus musculus with 28 samples.

Results

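The 10 genes described here encode the core of the TGF-β pathway in naïve CD4+ T cells: the ligand gene *Tgfb1*, the receptor genes *Tgfbr1*, *Tgfbr2* and *Tgfbr3*, the signal transducers *Smad2*, *Smad3* and *Smad4*, and the feedback inhibitors *Smad7*, *Ski* and *Skil*. They were chosen by name, with earlier results of these data known, and all 10 were found among the 24089 genes of the RPKM table. In WT cells, TGF-β was accompanied by higher RPKM of both signalling receptors, of *Smad3* and of all the inhibitors, with *Tgfbr1* rising the most, whereas *Smad2* and *Smad4* did not pass the test in any comparison. IL-4 alone called none of the 9 members tested in WT cells, where 1.29% of all genes were called. In *Tgfbr1* KO cells none of the 9 members tested was called under any cytokine, where 0.0105% to 2.51% of all genes were called. At such shares, the lack of a call among 9 genes does not set the members apart from other genes. *Skil* was the 1 member lower in all 12 KO libraries than in all 12 WT libraries, as were 1.61% of 9726 genes.

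RNA-seq was done on CD4+ T cells in 8 groups of 3 libraries, WT or *Tgfbr1* KO, each cultured without added cytokine (control), with TGF-β, with IL-4, or with the pair (TGF-β + IL-4). All cells came from Tgfbr1 f/f ER-cre+ mice on the C57BL/6 background, aged 8 to 10 weeks, and all were stimulated with anti-CD3 and anti-CD28. WT mice had received oil and KO mice tamoxifen for 5 days, so that deletion of *Tgfbr1* and exposure to tamoxifen cannot be told apart in any comparison of the genotypes. The Cre of this line is activated by tamoxifen in every tissue and not in T cells alone, naïve CD4+ CD62L+ cells were isolated with magnetic beads, and the labels number the libraries of each group 1 to 3 without saying whether these are separate animals, so that p-values measure the spread between libraries, which may be technical. The hours of culture before sequencing are not given in the sources used here. DNase-seq was done on 4 libraries, 1 each of control cells and of cells given the pair of cytokines from either genotype, all numbered 3.

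A conflict in the table bears on every value below. The headings of the 24 value columns sort the libraries by culture. The study published read counts for 8 of the 12 WT libraries, and those of 6 do not sit under these headings. When the pattern of genes at 0 reads was compared with every column, each of the 8 libraries matched best, over the 1991 to 3821 genes at hand, the column at its place in library-number order, in at least 99.85% of genes against at most 85.79% for the next column, and only 2 of the 8 matched the column that carries its heading. All columns were therefore read by position in library-number order, as WT replicates 1 to 3 and then KO replicates 1 to 3, each with its control first, then TGF-β, then IL-4 and last the pair. The other 16 columns, 4 of WT replicate 2 and all 12 of the KO, rest on that position alone. Both readings give every column the same genotype, but they give the same library for only 4 of the 24 columns, and with the columns as headed no member was called in any of the 15 comparisons, as was no gene at all in 14 of them and 7 of 9672 genes in KO against WT control. Leaving out replicate 2 keeps the WT libraries that the read counts identify.

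TGF-β binds the type II receptor, which recruits and activates the type I receptor, and this kinase phosphorylates Smad2 and Smad3. These join Smad4 and move to the nucleus, where they bind DNA and change transcription. The genes of several inhibitors are themselves targets of the pathway: Smad7 competes for the type I receptor and directs its degradation, and the related proteins Ski and SnoN (the product of *Skil*) hold Smad complexes in a repressed state. In CD4+ T cells the pathway is known for its part in the differentiation of regulatory T cells, Th17 cells and, together with IL-4, Th9 cells.

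RPKM scales the reads of a gene to its length and to all mapped reads of the library, so that levels of different genes can be set side by side. In WT control cells the order from high to low was *Tgfbr2* with a mean of 10.0 ± 0.509 RPKM (SD, n = 3), *Tgfbr3* with 9.28 ± 0.516, *Smad2* with 6.21 ± 0.258, *Skil* with 5.36 ± 0.840, *Tgfb1* with 4.28 ± 1.36, *Ski* with 3.53 ± 0.351, *Smad3* with 3.37 ± 0.345, *Tgfbr1* with 3.19 ± 0.151, *Smad4* with 1.53 ± 0.383 and *Smad7* with 0.614 ± 0.0856. Most neighbours in this order overlapped in their 3 libraries. The ranges were separate only between *Tgfbr3* and *Smad2*, between *Tgfbr1* and *Smad4*, and between *Smad4* and *Smad7*. The relative depth of the libraries, read from the steps between low RPKM values, ranged from 0.794 to 1.66 when WT replicate 3 with TGF-β + IL-4 was set to 1, and total read numbers are unknown. Genes that mark CD4+ T cells were high in all libraries, the sum of 8 (*Cd4*, *Cd3e*, *Lck* and others) being 1404 to 1782 RPKM in WT and 1356 to 1783 in KO. Within a culture the genotypes overlapped in this sum only with IL-4. It was 1611 to 1691 (WT) and 1721 to 1783 (KO) in control, and 1571 to 1580 and 1660 to 1738 with TGF-β. With TGF-β + IL-4 the order was reversed, at 1726 to 1782 in WT and 1381 to 1498 in KO.

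*Tgfbr1* encodes the type I receptor and is the gene deleted in the KO. It lies on the plus strand of mouse chromosome 4 (mm9, chr4:47366094-47427803). In the KO the RPKM was 2.32, 2.55 and 3.05 without cytokine, 2.37, 2.42 and 3.24 with TGF-β, 2.92, 3.75 and 3.17 with IL-4, and 3.45, 5.18 and 3.35 with TGF-β + IL-4. WT control libraries held 3.02, 3.25 and 3.31, and the 2 control groups overlapped. The difference of KO control from WT control was −0.21 on the log2(RPKM + 1) scale, with a 95% interval from −0.42 to −0.0012 and an adjusted p of 0.164. The part of the gene that is removed is not given in the sources used here, and RPKM takes in reads over the whole gene, so this value does not check the deletion.

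**Figure D1:**
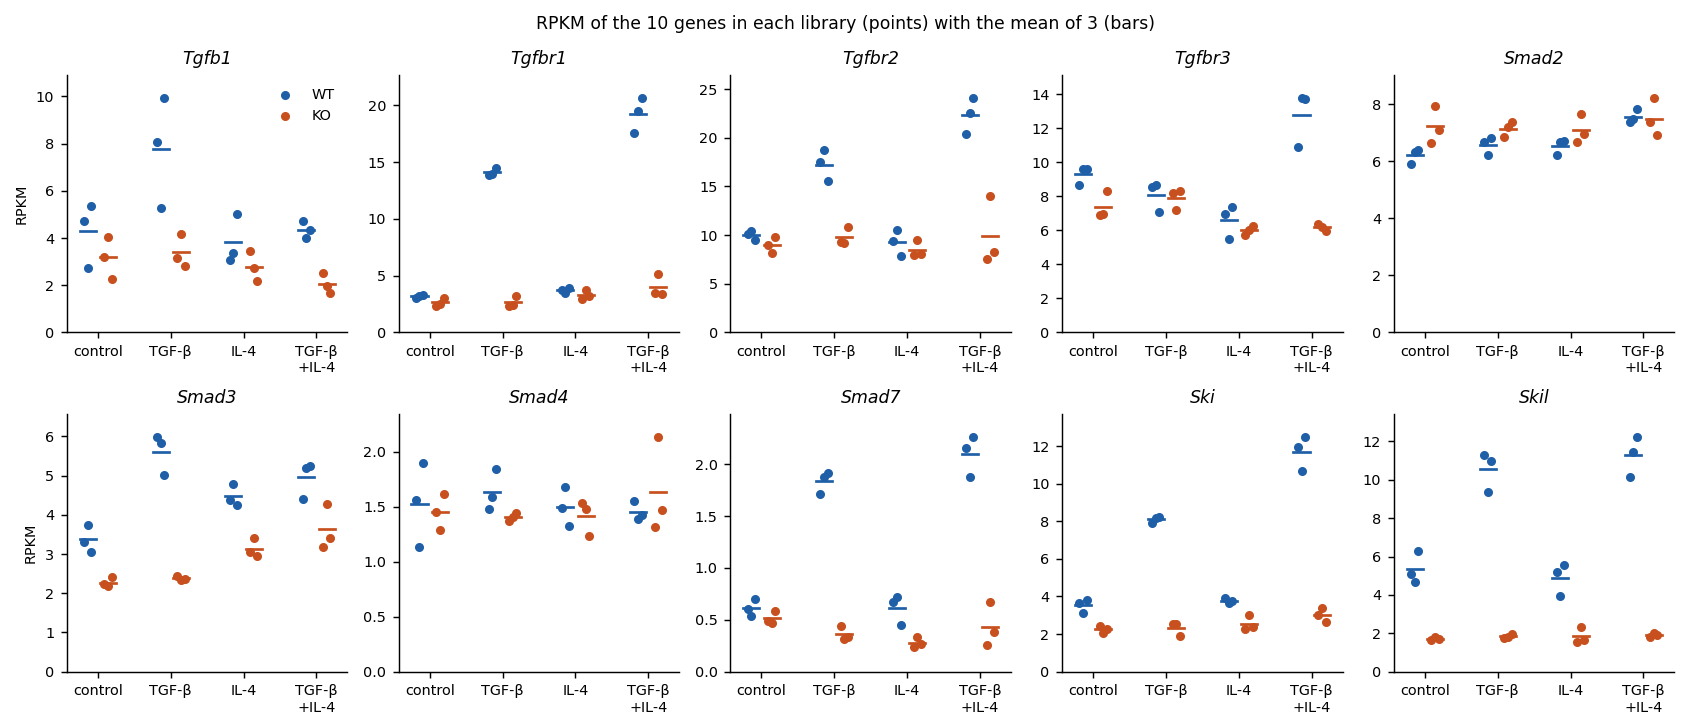
RPKM of each of the 10 genes (vertical axes from 0, a scale of its own for each gene) in the 4 cultures, WT in blue and KO in orange. Each point is 1 library and each bar the mean of 3. *Tgfbr1*, *Tgfbr2*, *Smad7*, *Ski* and *Skil* of WT cells stand apart in both cultures with TGF-β, while KO points of these genes stay below them, 1 library with TGF-β + IL-4 standing above the other KO points for *Tgfbr1* and *Tgfbr2*.

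The first question was what TGF-β alone does to its own pathway. All comparisons used limma on log2(RPKM + 1) across all genes that averaged 1 RPKM or more, and a difference was called where the adjusted p (Benjamini-Hochberg) was under 0.01 and the fold change over 1.5. Of the 10 members, 6 were called, all of them higher (*Tgfbr1*, *Tgfbr2*, *Smad3*, *Smad7*, *Ski* and *Skil*), where 3.42% of all 9726 genes tested were called higher and 5.71% in either direction. *Smad7* reached the minimum level only through the TGF-β group, and without it 5 of 9 were called, with a median log2 fold change of 0.72 against 0.011 over all genes. Without replicate 2 the same 6 were called, and *Tgfb1* as well. Without replicate 1 the calls of *Tgfbr2*, *Smad3* and *Skil* were lost and 3 remained, while calls over all genes fell from 555 to 294 of 9719.

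Among the receptors, *Tgfbr1* RPKM was 13.9, 14 and 14.5 in the 3 WT TGF-β libraries, against 3.02 to 3.31 in control. The groups lay far apart, with no value between them. The fitted log2 fold change was 1.85 with an SE of 0.060 (adjusted p = 1.464e-06), and the ratio of the mean RPKM was 4.42. *Tgfbr2*, the type II receptor that binds the ligand first, was 17.5, 18.7 and 15.5 RPKM under TGF-β and 10.1, 10.5 and 9.47 in control. These groups did not overlap either, and the log2 fold change was 0.72 with an SE of 0.078 (adjusted p = 0.0004532). *Tgfbr3*, which encodes betaglycan, a co-receptor that presents ligand to the type II receptor, was 8.53, 8.63 and 7.09 RPKM against 8.69, 9.57 and 9.58, with a log2 fold change of −0.18 and an interval from −0.38 to 0.015 (adjusted p = 0.184). All 3 of its TGF-β libraries were below all controls, without a call.

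The ligand gene *Tgfb1* was 8.09, 5.29 and 9.94 RPKM under TGF-β and 4.73, 2.75 and 5.36 in control. The groups overlapped, with replicate 2 lowest in both. The log2 fold change was 0.73 with an SE of 0.25 and was not called (adjusted p = 0.0770). Without replicate 2 it was called at 0.72 (adjusted p = 0.00207).

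Of the Smads, *Smad3* was 5.98, 5.83 and 5.01 RPKM under TGF-β and 3.31, 3.75 and 3.06 in control, with no overlap and a log2 fold change of 0.59 with an SE of 0.089 (adjusted p = 0.00255). Its fold of 1.51 lay just above the threshold. *Smad2*, which shares the receptor signal with Smad3, was 6.69, 6.22 and 6.83 against 5.91, 6.31 and 6.39, and *Smad4*, the common partner of both, was 1.48, 1.59 and 1.84 against 1.56, 1.13 and 1.90. Both groups overlapped for both genes. The intervals of their log2 fold changes ran from −0.078 to 0.22 and from −0.20 to 0.34.

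All 3 inhibitors were higher under TGF-β. *Smad7* was 1.71, 1.88 and 1.91 RPKM under TGF-β and 0.606, 0.533 and 0.703 in control, a log2 fold change of 0.81 with an SE of 0.071 (adjusted p = 0.0001532) and a ratio of the means of 2.99. Since the level is low, adding 1 before the logarithm understates its change, and with a pseudocount of 0.1 the log2 fold change was 1.44. *Smad7* reached a mean of 1 RPKM, and so was tested, only in fits that held a WT group given TGF-β, and not in the tests between the genotypes' responses. *Ski* was 7.94, 8.17 and 8.21 against 3.65, 3.13 and 3.81, with a log2 fold change of 1.01 and an SE of 0.074 (adjusted p = 6.062e-05). *Skil* was 11.3, 9.38 and 11.0 against 5.08, 4.69 and 6.30, with a log2 fold change of 0.87 and an SE of 0.11 (adjusted p = 0.00108). For each of the 3 inhibitors the lowest TGF-β library was above the highest control library.

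**Figure D2:**
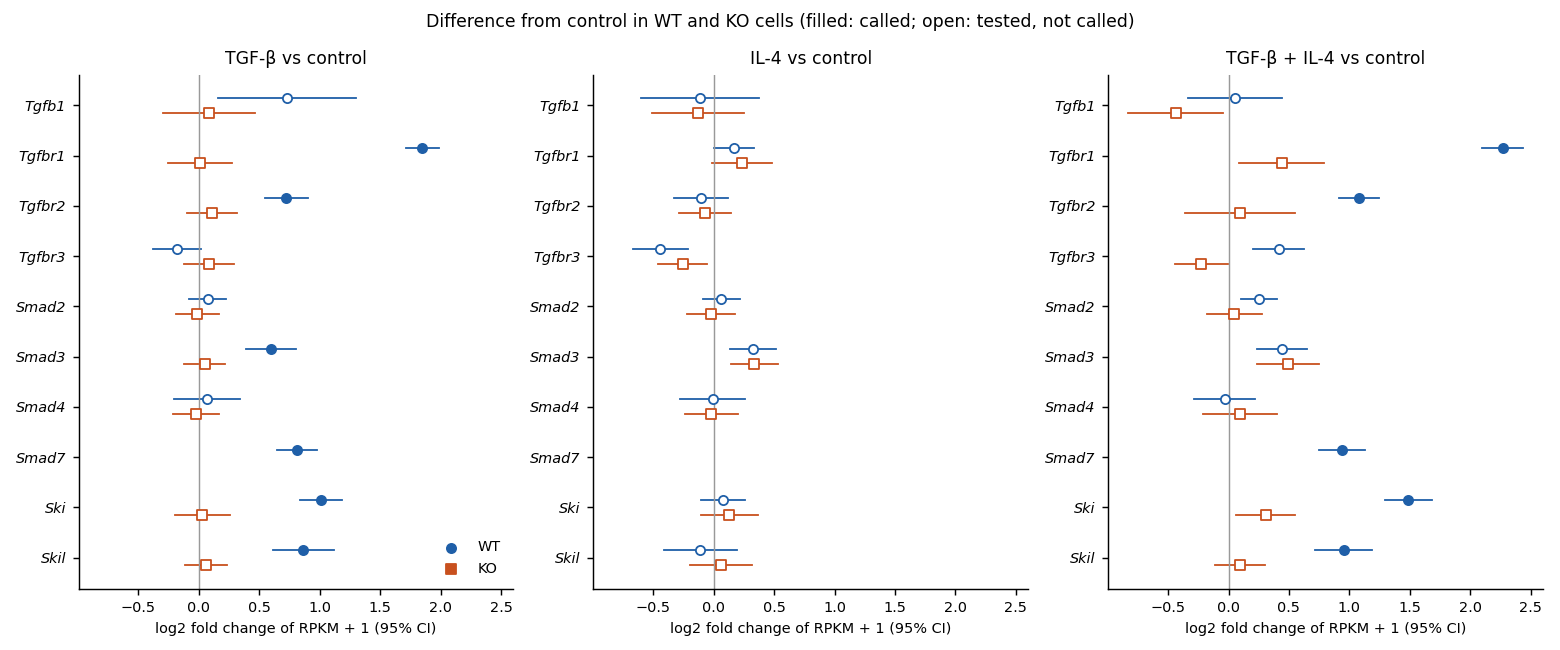
Log2 fold change of RPKM + 1 against control (horizontal axis) with its 95% interval for each gene, WT as blue circles and KO as orange squares, filled where called and open where tested and not called. Under TGF-β, 6 WT symbols are filled, under IL-4 none and under TGF-β + IL-4 5, and no KO symbol is filled in any panel. *Smad7* has no symbol where its mean was under 1 RPKM.

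Sites of open chromatin were listed at the same genes. DNase I cuts accessible DNA, and a DNase I hypersensitive site (DHS) is a region in which cuts pile up above the local background. With 1 library per condition, and lists that hold no read counts, no difference between lists has an error or a test. A promoter DHS, within 1000 bp of a transcript start in GENCODE vM1, an annotation of mm9, was found at 9 of the 10 members in WT control cells and 10 in WT cells with TGF-β + IL-4, and at 10 and 9 in the same cultures of the KO, against 51.0%, 49.2%, 49.3% and 47.0% of all 22367 protein-coding genes. That share takes in genes whether expressed in these cells or not, and the members were not compared with expressed genes alone. Each member had 1 to 6 transcript starts searched, and some of these lie inside the gene. *Tgfbr3* was the member without a promoter DHS in WT control, and *Smad7* in KO TGF-β + IL-4. Within 10 kb of the genes, the 4 lists held 90, 74, 67 and 49 DHSs in that order, which is 2.03, 2.18, 1.99 and 1.80 of every 1000 DHSs listed. The lists themselves differ in length, from 44298 in WT control to 27145 in KO TGF-β + IL-4.

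Merged over the lists, these DHSs formed 106 sites, of which 38 were present in all 4 lists and 9 in both WT lists and neither KO list. Of the 9, 4 were at *Tgfbr2*, 2 at *Tgfbr3* and 1 each at *Smad7*, *Ski* and *Skil*. *Tgfbr1*, the member with the largest rise, had 4 sites. Its promoter DHS was enriched 9.51-fold (WT) and 7.87-fold (KO) over the local background in control cells, and 8.22-fold and 6.16-fold with TGF-β + IL-4, and so was listed in all 4. A second DHS upstream of it was listed at 3.99-fold in WT control, at 5.53-fold (WT) and 3.50-fold (KO) with TGF-β + IL-4, and not in KO control. *Smad3* had 20 sites, none of them in both WT lists only, and 6 sites over all members were listed in WT TGF-β + IL-4 alone, 3 of them at *Tgfbr3* and 2 at *Smad2*. The share of all DHSs in the series with each of these patterns was not computed. Since the lists differ in length, the counts describe the sites and do not set the members apart from other genes.

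**Figure D3:**
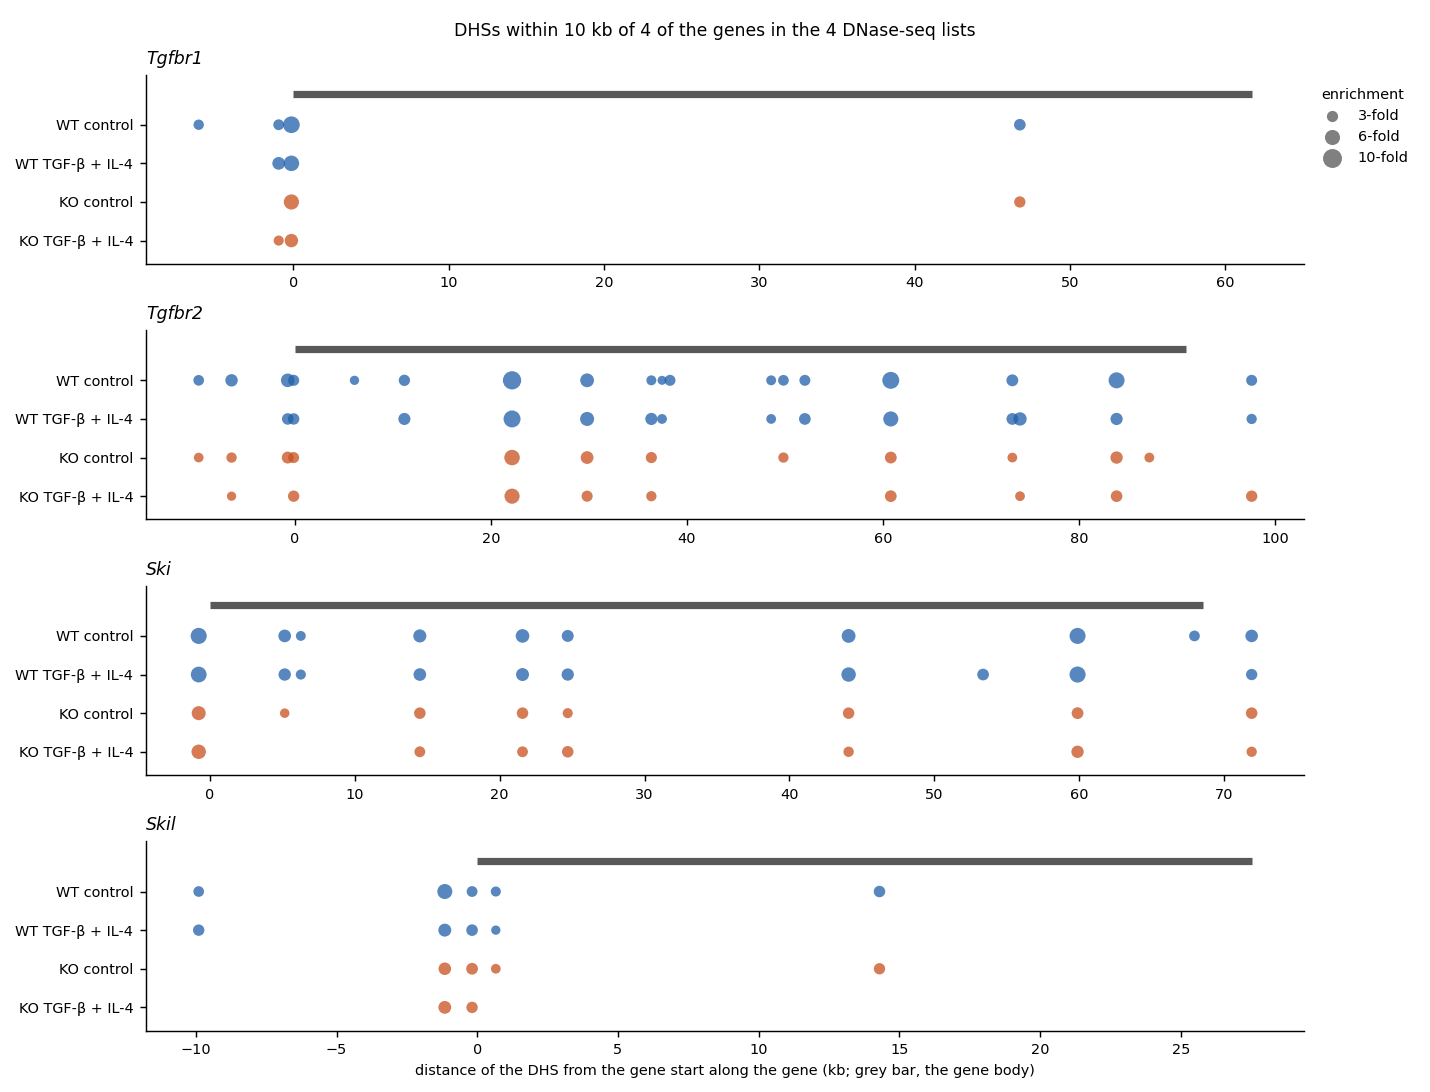
DHSs of *Tgfbr1*, *Tgfbr2*, *Ski* and *Skil* in the 4 lists (rows; WT blue, KO orange) by their distance from the gene start in kb along the gene, with the gene body as a grey bar and the area of each point in proportion to the fold enrichment. The start of each gene is marked in every list, and the *Skil* DHS farthest upstream appears in both WT rows only.

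The DNA under these summits is shown for both signalling receptors and for *Ski* and *Skil*, 4 of the 6 members that TGF-β raised in WT cells, as 201 bases of mm9 centred on the summit in WT TGF-β + IL-4, 5′ to 3′ on the strand of the gene. A window of *Smad3* was taken in the same way but is not printed, and none was taken for *Smad7*. For *Tgfbr1*, *Tgfbr2* and *Ski* it is the DHS nearest to the gene start whose window touches no annotated exon, and for *Skil* all 3 such windows near the start are given. Capitals mark CAGAC or its complement GTCTG, letters that the DNA-binding domain of Smad3 and Smad4 is known to bind. The first 3 windows are chr4:47365867-47366067 (plus strand, summit at −127 bp from the gene start), chr9:116084996-116085196 (minus strand, −713 bp) and chr4:154597366-154597566 (minus strand, −765 bp).
Tgfbr1: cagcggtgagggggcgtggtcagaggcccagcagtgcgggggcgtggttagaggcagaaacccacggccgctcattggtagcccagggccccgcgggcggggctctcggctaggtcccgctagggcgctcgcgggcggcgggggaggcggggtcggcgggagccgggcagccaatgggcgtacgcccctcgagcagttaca
Tgfbr2: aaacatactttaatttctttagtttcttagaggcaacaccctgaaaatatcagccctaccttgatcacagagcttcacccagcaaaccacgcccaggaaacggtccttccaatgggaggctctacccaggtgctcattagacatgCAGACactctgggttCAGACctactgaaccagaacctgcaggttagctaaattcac
Ski: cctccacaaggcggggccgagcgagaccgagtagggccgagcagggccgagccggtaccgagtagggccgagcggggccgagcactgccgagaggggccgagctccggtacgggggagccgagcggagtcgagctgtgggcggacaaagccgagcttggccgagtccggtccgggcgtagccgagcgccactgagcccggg
The *Skil* windows, all on the plus strand, are chr3:30983921-30984121 (−9959 bp from the gene start), chr3:30992604-30992804 (−1276 bp) and chr3:30994509-30994709 (629 bp after it, in an intron).
Skil far upstream: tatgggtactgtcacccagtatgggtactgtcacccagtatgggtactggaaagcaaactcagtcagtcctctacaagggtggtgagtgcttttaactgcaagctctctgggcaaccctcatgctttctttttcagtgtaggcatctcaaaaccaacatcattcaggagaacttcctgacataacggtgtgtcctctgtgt
Skil upstream: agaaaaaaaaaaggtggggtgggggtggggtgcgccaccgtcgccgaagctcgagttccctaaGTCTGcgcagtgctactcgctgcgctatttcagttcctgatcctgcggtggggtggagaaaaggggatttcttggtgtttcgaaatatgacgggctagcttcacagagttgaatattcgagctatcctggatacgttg
Skil intron: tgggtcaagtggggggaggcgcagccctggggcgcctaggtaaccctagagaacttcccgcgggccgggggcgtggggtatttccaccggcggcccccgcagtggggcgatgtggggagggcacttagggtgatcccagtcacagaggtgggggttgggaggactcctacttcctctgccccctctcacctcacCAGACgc
The *Tgfbr2* window held the letters 2 times, the upstream and the intronic *Skil* window 1 time each, and the windows of *Tgfbr1*, *Ski* and the far upstream DHS of *Skil* 0 times. The *Smad3* window (chr9:63605855-63606055) also held them 0 times. Over all 33877 windows of the same length and list, 41.9% held them at least once, and the palindrome GTCTAGAC, in 0.275% of windows, was in none of these. The far upstream *Skil* DHS was listed at 3.89-fold (control) and 4.44-fold (both cytokines) in the WT lists and in neither of the shorter KO lists. Counted from the strongest DHS, it stood 86.2% and 68.3% of the way down these WT lists, so it was among their weaker sites. The upstream one was in all 4 lists at 5.37-fold to 7.68-fold. The *Tgfbr2* DHS shown was listed at 6.33-fold in WT control, 4.54-fold in WT cells with both cytokines and 4.87-fold in KO control, and not in the fourth list.

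IL-4 alone called none of the 9 members tested in WT cells, where 1.29% of genes were called in either direction. At an unadjusted p under 0.05, 1686 of the 9680 genes passed. *Tgfbr3* came nearest among the members: it was 6.95, 5.51 and 7.35 RPKM under IL-4 and 8.69, 9.57 and 9.58 in control, with every IL-4 library below every control library and a log2 difference of −0.44 (SE 0.0997, adjusted p = 0.0447). *Smad3* was 4.38, 4.797 and 4.26 under IL-4, all above the 3.06 to 3.75 of control, with a log2 difference of 0.33 (SE 0.082, adjusted p = 0.0660). *Tgfbr1*, *Ski* and *Skil* had intervals from 0.00050 to 0.33, from −0.10 to 0.26 and from −0.41 to 0.19. Without replicate 2, again 0 members were called, and 73 of 9674 genes.

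With TGF-β + IL-4, the culture that drives Th9 differentiation, 5 of the 10 members were called higher than control, where 6.43% of 9816 genes were called higher and 9.27% in either direction. Without *Smad7* it was 4 of 9. *Tgfbr1* was 17.6, 19.5 and 20.7 RPKM, 6.02 times the control mean, with a log2 fold change of 2.27 (SE 0.076, adjusted p = 1.116e-07). *Ski* was 12, 10.7 and 12.47, with a log2 fold change of 1.49 (SE 0.086, adjusted p = 2.764e-06), and *Tgfbr2* was 20.4, 22.6 and 24.1, with 1.082 (SE 0.073, adjusted p = 7.452e-06). *Skil*, at 10.2, 11.5 and 12.2, and *Smad7*, at 2.15, 1.88 and 2.26, rose by 0.95 and 0.94. The same 5 were called when each replicate in turn was left out. *Smad3* was 4.41, 5.21 and 5.24, above all control libraries, but its fold of 1.36 lay under the threshold (adjusted p = 0.00393). *Tgfbr3* and *Smad2* were also above all control libraries without a call, with folds of 1.33 (adjusted p = 0.00638) and 1.19 (adjusted p = 0.0142). *Tgfb1* and *Smad4* overlapped control, with intervals of the log2 fold change from −0.33 to 0.44 and from −0.28 to 0.22.

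Against TGF-β alone, adding IL-4 called 1 of the 10 members, *Tgfbr3*, where 2.53% of 9852 genes were called higher and 3.03% in either direction. *Tgfbr3* was 10.9, 13.8 and 13.7 RPKM with both cytokines and 8.53, 8.63 and 7.09 with TGF-β, without overlap, a log2 fold change of 0.60 (SE 0.10, adjusted p = 0.00435). Its fold of 1.51 lay at the threshold, and the call was lost without replicate 1 or 3, as calls over all genes fell from 299 to 167 and 143. *Tgfbr1* and *Ski* passed the p threshold but not the fold, with log2 fold changes of 0.42 (adjusted p = 0.00312) and 0.48 (adjusted p = 0.00214). *Tgfb1* was 4.71, 4.01 and 4.36 with both cytokines, below all 3 TGF-β libraries (5.29 to 9.94), with a log2 difference of −0.68 (adjusted p = 0.0225), and it was called lower without replicate 2 (adjusted p = 0.0004579).

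Against IL-4 alone, adding TGF-β called 6 of 10 members, all higher, where 6.06% of 9829 genes were called higher and 9.28% in either direction. These were *Tgfbr1*, *Tgfbr2*, *Tgfbr3*, *Smad7*, *Ski* and *Skil*, with log2 fold changes from 0.86 for *Tgfbr3* to 2.10 for *Tgfbr1*, and the same 6 were called without replicate 2. Without *Smad7* it was 5 of 9. A test for departure of the joint response from the 2 single responses added up called *Tgfbr3* only, at 1.04 (SE 0.16, adjusted p = 0.00201), where 1.42% of 9794 genes were called with this sign and 1.77% with either. *Tgfbr3* was below all controls with either cytokine alone, neither of them called, and above all controls with both, but the departure was not called when any 1 replicate was left out, which left 0, 91 and 32 genes called without replicates 1, 2 and 3 against 173, and was 0.90 (adjusted p = 0.0161) without replicate 2.

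In *Tgfbr1* KO cells, TGF-β called none of the 9 members tested, where 1 of 9563 genes (0.0105%) was called and 246 had an unadjusted p under 0.05. That gene, named here after its value was seen, was *Foxp3*, the factor that defines regulatory T cells, at 4.75, 3.95 and 3.92 RPKM against 1.46, 1.36 and 1.48 in KO control. *Ski* was 2.53, 2.52 and 1.92 under TGF-β and 2.41, 2.04 and 2.28 in control, and *Skil* was 1.76, 1.82 and 1.94 against 1.67, 1.80 and 1.71. Both pairs overlapped, and the intervals of the log2 fold change were from −0.20 to 0.26 and from −0.12 to 0.24. For *Tgfbr1* itself the interval was from −0.26 to 0.28, and for *Tgfbr2* from −0.100 to 0.32. *Smad7*, not tested at this level, was 0.444, 0.319 and 0.331 under TGF-β and 0.493, 0.470 and 0.582 in control.

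IL-4 and TGF-β + IL-4 also called none of the 9 in KO cells, where 2.51% and 1.92% of genes were called against control. *Smad3* came nearest with both. It was 2.22, 2.19 and 2.41 RPKM in KO control, 3.05, 3.40 and 2.94 with IL-4 and 3.19, 4.27 and 3.42 with TGF-β + IL-4, so that neither cytokine group overlapped control. The log2 differences were 0.34 (SE 0.086, adjusted p = 0.0487) and 0.49 (SE 0.11, adjusted p = 0.0495). With TGF-β + IL-4, *Tgfbr1* and *Ski* were also above all KO control libraries, by 0.44 and 0.31 (adjusted p = 0.210 for each). *Tgfbr3* was below all KO control libraries with IL-4 (−0.26, adjusted p = 0.132) and with TGF-β + IL-4 (−0.22, adjusted p = 0.319). *Tgfb1* differed by −0.44 with TGF-β + IL-4 (adjusted p = 0.277), and its groups overlapped. One library stood apart here: KO TGF-β + IL-4 replicate 2 had the highest RPKM of the 12 KO libraries for *Tgfbr1* (5.18), *Tgfbr2* (14.1), *Smad2* (8.22), *Smad3* (4.27), *Smad4* (2.13), *Smad7* (0.667) and *Ski* (3.39). This library also had the lowest relative depth of all 24, 0.794, and whether depth bears on these values was not tested.

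Tested directly, the response to TGF-β differed between the genotypes for 4 of the 9 members tested, *Tgfbr1*, *Tgfbr2*, *Ski* and *Skil*, all with the smaller response in KO, where 2.85% of 9678 genes were called with this sign and 4.71% in either direction. The KO response minus the WT response was −1.84 for *Tgfbr1* (SE 0.14, adjusted p = 1.805e-06), −0.98 for *Ski* (SE 0.12, adjusted p = 0.0001713), −0.81 for *Skil* (SE 0.13, adjusted p = 0.00135) and −0.62 for *Tgfbr2* (SE 0.12, adjusted p = 0.00539). *Smad3* differed by −0.55 at an adjusted p of 0.00537, with a fold under the threshold. Without replicate 1 of each genotype only *Tgfbr1* was called, and without replicate 2 *Tgfbr1* and *Ski*, while calls over all genes fell from 456 to 216 and 280. With no filter on low values *Smad7* entered the test and differed by −0.96 (adjusted p = 4.06e-05).

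For TGF-β + IL-4, 4 of 9 members differed in response, *Tgfbr1* by −1.83 (SE 0.18, adjusted p = 3.507e-05), *Ski* by −1.18 (SE 0.13, adjusted p = 0.0001084), *Skil* by −0.86 (SE 0.14, adjusted p = 0.00133) and *Tgfbr3* by −0.64 (SE 0.14, adjusted p = 0.00823), where 2.78% of 9756 genes were called with this sign and 4.18% in either direction. *Tgfbr2* differed by −0.99 and was not called (adjusted p = 0.0154), with KO replicate 2 at 14.1 RPKM and the other KO libraries at 7.52 and 8.31. Without replicate 2 of each genotype it was called at −1.33 (adjusted p = 0.0004107). *Tgfbr3* (adjusted p = 0.0348) and *Skil* (adjusted p = 0.0155) were not called without replicate 2. Without replicate 1 or 3, *Tgfbr1* alone of the members was called, and 122 and 120 genes in all against 408.

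**Figure D4:**
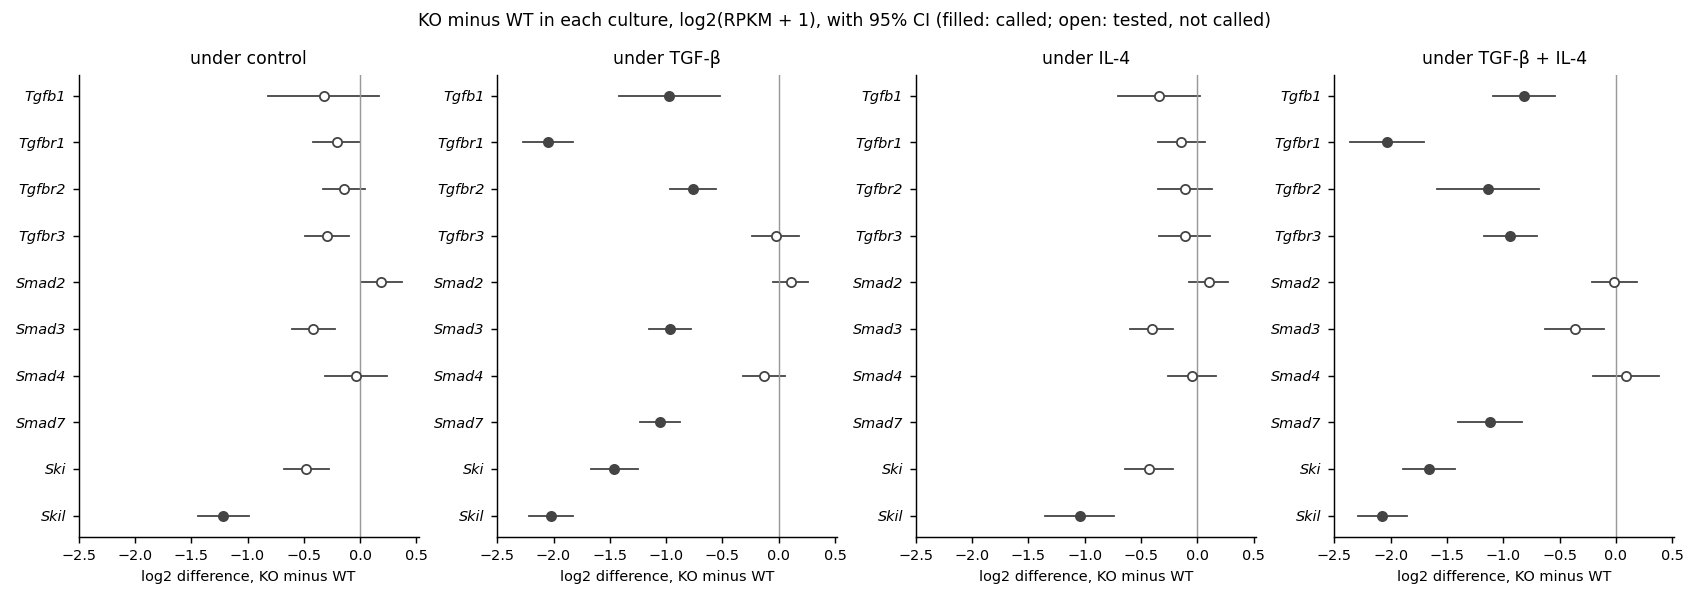
Log2 difference of RPKM + 1, KO minus WT (horizontal axis), with its 95% interval in each of the 4 cultures, filled where called and open where tested and not called. *Skil* is the 1 filled point in control cells and with IL-4, and each panel with TGF-β has 7 filled points, all below 0.

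Without added cytokine, *Skil* was the 1 of 9 members called between the genotypes, where 1.82% of 9644 genes were called lower in KO and 2.46% in either direction. It was 1.67, 1.80 and 1.71 RPKM in KO and 5.08, 4.69 and 6.30 in WT, 3.11 times as high in WT, with a log2 difference of −1.21 (SE 0.10, adjusted p = 0.0002363). The call was lost without replicate 1, which left 61 genes called against 237. *Ski* was 2.41, 2.04 and 2.28 in KO and 3.65, 3.13 and 3.81 in WT, and *Smad3* was 2.22, 2.19 and 2.41 against 3.31, 3.75 and 3.06. Neither pair overlapped, but neither was called, with differences of −0.48 (adjusted p = 0.0105) and −0.42 (adjusted p = 0.0154). *Smad2* went the other way, at 6.65, 7.93 and 7.11 in KO against 5.91 to 6.39 in WT, and was not called (0.19, adjusted p = 0.151).

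Under IL-4, *Skil* was again the 1 member called of 9 (2.61% of 9679 genes called lower, 2.99% in either direction). It was 1.55, 2.34 and 1.67 RPKM in KO and 5.22, 3.92 and 5.57 in WT, a log2 difference of −1.05 (SE 0.14, adjusted p = 0.00132). The call was lost without replicate 1 or 3, which left 156 and 109 genes called against 289, and with no filter on low values (adjusted p = 0.0179).

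Under TGF-β, 7 of 10 members were lower in KO, where 6.53% of 9687 genes were called lower and 9.68% in either direction. Without *Smad7* it was 6 of 9, here and with both cytokines. The differences were −2.05 for *Tgfbr1*, −2.02 for *Skil*, −1.46 for *Ski*, −1.05 for *Smad7*, −0.97 for *Tgfb1*, −0.96 for *Smad3* and −0.76 for *Tgfbr2*. *Skil* mean RPKM was 5.73 times as high in WT as in KO, *Tgfbr1* 5.28 times and *Smad7* 5.03 times. *Tgfb1*, at 3.17, 4.18 and 2.82 in KO against 8.09, 5.29 and 9.94 in WT (adjusted p = 0.00500), was not called with no filter on low values (adjusted p = 0.0215), nor without replicate 1 or 3. *Tgfbr3* did not stand apart here, at 8.17, 7.21 and 8.31 in KO and 8.53, 8.63 and 7.09 in WT, with an interval from −0.24 to 0.18.

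Under TGF-β + IL-4, 7 of 10 were again lower in KO (5.73% of 9851 genes called lower, 8.44% in either direction), with *Tgfbr3* called in place of *Smad3*. *Tgfbr3* was 6.37, 6.17 and 5.95 RPKM in KO and 10.9, 13.8 and 13.7 in WT, a difference of −0.94 (SE 0.10, adjusted p = 0.0004025). *Tgfb1* was 2.53, 1.96 and 1.68 against 4.71, 4.01 and 4.36, a difference of −0.82 (SE 0.12, adjusted p = 0.00163). Without replicate 1, 4 of the 7 calls remained, those of *Tgfbr1*, *Tgfbr3*, *Ski* and *Skil*, and without replicate 3 those of *Tgfbr1*, *Ski* and *Skil*, while calls over all genes fell from 831 to 340 and 335.

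Over all cultures together, *Skil* was the one member whose KO libraries (1.55 to 2.34 RPKM, median 1.79) did not overlap the WT libraries (3.92 to 12.2, median 7.84). Of 9726 genes with a mean of at least 1 RPKM, 3.66% did not overlap between the genotypes, and in 1.61% the KO lay below. *Ski* overlapped by 1 KO library, its 12 KO values ranging from 1.92 to 3.39 and its 12 WT values from 3.13 to 12.47. After scaling by median ratios, after quantile normalization and without WT replicate 2, *Ski* also did not overlap, where 3.32%, 3.55% and 5.02% of all genes did not. *Smad2* and *Smad4* had KO to WT ratios of the medians of 1.07 and 0.951, the nearest to 1 among the members.

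Some genes of other cell types differed between the genotypes, and their part in these differences was not tested. Of 16 such markers 14 were in the table, with a lower median in KO for 11, a higher one for 2 (*Cd8b1* and *Ncr1*) and 1 at 0. Their summed RPKM was 32.3 to 60.8 in WT and 21.2 to 48.1 in KO libraries. Of the cytotoxic T cell genes, *Cd8a* was 5.04 to 8.87 in WT and 1.14 to 3.85 in KO, but *Cd8b1* was 11.0 to 30.4 (median 18.9) in WT and 12.8 to 25.1 (median 19.9) in KO. *Ncr1* of natural killer cells had medians of 1.34 and 1.82, and *Hbb-b1* of red blood cells was listed at 0 in all 24. The sum was 42.7 to 49.7 in WT control and 21.2 to 23.8 in KO control, against 45.3 to 60.8 and 38.7 to 48.1 with both cytokines, and did not overlap between the genotypes in any culture but the last. In RNA from whole cultures, fewer cells that express a gene and less RNA of it per cell cannot be told apart.

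Other genes of the pathway followed in part. For the counts in this and the following lists, 5.71% of all genes were called in either direction under TGF-β in WT cells. With TGF-β + IL-4 it was 9.27%. Of 14 further receptor and ligand genes 3 were tested under TGF-β in WT cells, and 1 was called, *Acvrl1*, a type I receptor of the same family, with a log2 fold change of 0.91 (adjusted p = 0.00111) and 1.60, 2.05 and 2.05 RPKM against 0.787, 0.368 and 0.502. *Acvrl1* averaged under 1 RPKM in control and was tested only through the TGF-β group. Of 12 genes of ligand activation 4 were tested and 2 called, *Lrrc32*, whose product GARP holds latent TGF-β on the cell surface (1.14, adjusted p = 2.236e-05), and *Furin*, the protease that cleaves the TGF-β precursor (1.07, adjusted p = 1.682e-05). Both were also called with TGF-β + IL-4. *Furin* was 36.6, 38.0 and 35.7 RPKM in WT control and 10.6, 10.6 and 9.06 in KO control, and was lower in KO in all 4 cultures, with log2 differences of −1.77 (control), −2.60 (TGF-β), −1.19 (IL-4) and −2.07 (both).

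None of the 2 BMP-type or inhibitory Smads tested, of 4, was called by any cytokine in either genotype or between the genotypes. Of 21 regulators of Smads or receptors, 14 were tested under TGF-β in WT and 2 called, both of them inhibitors that the pathway is known to induce, and both higher: *Pmepa1* by 1.201 (adjusted p = 5.343e-05) and *Ldlrad4* by 1.89 (adjusted p = 1.877e-05). *Pmepa1* was 6.77, 6.27 and 7.57 RPKM against 2.33, 2.25 and 2.68 in WT, and 0.679, 0.675 and 0.640 under TGF-β against 0.732, 0.604 and 0.541 in KO, so that its KO libraries lay below every WT control library. With TGF-β + IL-4 *Usp11*, a deubiquitinase that acts on the type I receptor, was called as well (0.61, adjusted p = 0.0009477). The medians of the list were 0.022 and 0.086, against 0.011 and 0.025 over all genes.

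Of 12 genes listed as targets of TGF-β in other settings, 7 were tested in WT cells under TGF-β and 5 called, where 5.71% of all genes were called. *Itgae* averaged 0.255 RPKM in control and was tested only through the TGF-β group, as was *Ldlrad4* above (0.988 RPKM). *Foxp3* rose by 3.28 (adjusted p = 8.704e-07), *Itgae*, the αE integrin chain of mucosal T cells, by 2.06 (adjusted p = 3.469e-06) and *Id1* by 1.77 (adjusted p = 2.744e-05), and *Gadd45b* and *Id3* fell by 0.88 and 0.64. The same 5 were called in the same directions with TGF-β + IL-4. In KO cells *Foxp3* was the 1 call under TGF-β among 6 tested, at 1.09 (adjusted p = 0.00892), and the KO response minus the WT response was −2.19 (adjusted p = 3.893e-07).

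The genes most like each member over all 24 libraries, by Pearson's r of log2(RPKM + 1) among 9726 genes, are given as a description, since the libraries share cultures and genotypes. *Tgfbr1* was closest to *Itgae* (r = 0.984), *Tmem19* (0.983) and *Zdhhc20* (0.982), and *Skil* to *Il2rb* (0.985), *Pmepa1* (0.983) and *Ptpn1* (0.981). *Ski* was closest to *Tbc1d4*, *Ctsw* and *Ldlrad4* (0.980 each), *Smad7* to *1600014C10Rik* (0.980), *Rragd* (0.977) and *Ikzf4* (0.972), and *Tgfbr2* to *Trp53inp1* (0.969), *Slc44a2* (0.967) and *Rnf114* (0.965). *Smad3* (*Agpat3*, *Treml2* and *Ccr8*, 0.946 to 0.950) and *Tgfbr3* (*Gpr18*, *Pacsin1* and *Icos*, 0.877 to 0.892) had looser neighbours. Within the family *Tgfbr1* and *Ski* were each other's nearest member (0.965), *Smad7* and *Skil* were nearest to *Ski* (0.960 and 0.928), *Tgfbr2* to *Tgfbr1* (0.941), *Smad3* to *Skil* (0.832) and *Tgfbr3* to *Tgfbr2* (0.720).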

How the data were processed

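Naïve CD4+ T cells were profiled by RNA-seq (24 libraries, 3 for each of 8 groups) and DNase-seq (4 libraries). Reads were mapped by the authors to mm9 with Bowtie2, reads of MAPQ up to 10 and redundant reads were removed, and libraries were made with Smart-seq2, which does not mark strand. The deposited RPKM values are normalized to gene length and mapped reads, for which the authors used edgeR. The deposited DHS lists hold 1 library each, and give for every peak its fold enrichment and its significance as −log10 values, which the authors obtained with MACS (MACS2 in the submitters' processing notes). The versions are not given in the sources used here. RPKM columns were read by position because the headings conflict with the study's read counts.

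limma 3.58.1 (R 4.3.3; moderation with a trend, two-sided) was run on log2(RPKM + 1), keeping genes that averaged 1 RPKM or more, with only the compared groups in the fit, in 15 comparisons. Calls needed an adjusted p (Benjamini-Hochberg over all genes tested) under 0.01 and a fold over 1.5, the thresholds of the study's methods. Fold changes are on this scale, which understates those of low genes. RPKM are not counts, so count tests were not run. All members were tested in every comparison in which they averaged 1 RPKM or more, and the text names those called and some of the others. The 3 most correlated genes are given for each member called in WT. From each further list the genes called under TGF-β or TGF-β + IL-4 in WT are named. Members and lists were chosen with earlier results of these data known. Replicate numbers were not taken to pair libraries. DHSs were placed with Python 3.11.15 and pandas 2.3.3 at an overlap of at least 1 bp. The limma step was tested on simulated data.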

Additional observations from a re-analysis of the deposited data

Results flagged for a closer look

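For 8 results the response to a cytokine differed between the genotypes by a test of the difference itself. Given as the KO response minus the WT response on the log2(RPKM + 1) scale (limma, Benjamini-Hochberg adjusted p), the differences under TGF-β were −1.84 for *Tgfbr1* (adjusted p = 1.805e-06), −0.98 for *Ski* (0.0001713), −0.81 for *Skil* (0.00135) and −0.62 for *Tgfbr2* (0.00539). Under TGF-β + IL-4 they were −1.83 for *Tgfbr1* (3.507e-05), −1.18 for *Ski* (0.0001084), −0.86 for *Skil* (0.00133) and −0.64 for *Tgfbr3* (0.00823). In the same way, the response of *Tgfbr3* to IL-4 differed in WT cells with and without TGF-β, by 1.04 (adjusted p = 0.00201). All 9 use columns that rest on position in the table alone. The *Tgfbr3* difference in WT cells was not called when any 1 replicate was left out. Between the genotypes, only *Tgfbr1* kept its calls without replicate 1, where calls over all genes also fell. Without replicate 2, *Skil* lost both of its calls, *Tgfbr2* its call under TGF-β and *Tgfbr3* its call under TGF-β + IL-4.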

How the results depend on the processing

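Of 504 recomputed log2 fold changes of called members, leaving aside the columns as headed, 454 kept direction and call, 50 lost the call (34 of them when a replicate was left out) and 0 reversed. Cases in which a filter took a called member out of the test have no value and are in none of these counts. With the columns as headed 0 members were called in every comparison (0 genes in 14, and 7 of 9672 genes in KO against WT control), and *Tgfbr3* reversed to −0.095 (TGF-β + IL-4 against TGF-β), −0.0125 (against IL-4) and −0.25 (departure from the sum). The cause of the conflict in the headings was not tested. *Tgfbr3* with TGF-β + IL-4 against TGF-β was not called (0 members) with no filter (194 of 16609 genes called) or quantile normalization (269 of 9852). At an adjusted p under 0.05, 2 members and 345 of 9852 genes were called. For KO against WT, 0 were called under control with a minimum of 5 RPKM, which removes *Skil* from the test (149 of 6718 genes called). Under IL-4, 0 were called with that minimum (193 of 6736 genes) or no filter (149 of 16416). With the same minimum, 2 members and 284 of 6750 genes were called for the difference in TGF-β response. Leaving out 1 replicate number at a time gave 3 to 7 calls for WT TGF-β, 0 to 2 for TGF-β + IL-4 against TGF-β, 0 for the departure from the sum, 0 to 1 for KO against WT under control and under IL-4, 5 to 7 under TGF-β, 3 to 7 with both cytokines, and, for the difference in response between genotypes, 1 to 4 (TGF-β) and 1 to 3 (TGF-β + IL-4). Over all genes, calls moved as well, to 294 to 561 for WT TGF-β, 143 to 452 against TGF-β and 0 to 91 for the departure. For KO against WT they were 61 to 247 (control), 109 to 257 (IL-4), 763 to 1070 (TGF-β) and 335 to 1104 (both). For the difference in response they were 216 to 322 (TGF-β) and 120 to 513 (TGF-β + IL-4). With the replicate block, 7 members were called for WT TGF-β (592 of 9726 genes) and 2 for TGF-β + IL-4 against TGF-β (338 of 9852). For the difference in response, 5 were called under TGF-β (523 of 9678 genes) and 3 under TGF-β + IL-4 (325 of 9756). For KO against WT the block gave 6 member calls under TGF-β, without *Tgfb1* (901 of 9687 genes), and 0 under IL-4 (227 of 9679). The other member counts did not change. The libraries share only a number: deviations from the group means correlated between −0.0886 and 0.553 (WT) and −0.297 and 0.415 (KO) for equal numbers, and 8 of 12 WT and 10 of 12 KO libraries correlated best with their own number, a hint from the data and not the design. *Ski* joined *Skil* (2 members) among the non-overlapping genes under both scalings and without WT replicate 2 (3.32%, 3.55% and 5.02% of all genes), alternatives chosen after seeing the data. Promoter DHS counts stayed at 8 to 10 of 10 members under all 3 alternatives. Read numbers are unknown.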
